A study of Mus musculus with 2 samples.

Results

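The cells described here were C1q-positive macrophages of subcutaneous ovarian tumors that carried transcripts of Folr2, Lyve1 or Cd163. They were selected on unique molecular identifier counts (UMIs, each standing for 1 captured transcript). A cell had to hold at least 3 UMIs of C1qa, C1qb and C1qc together, at least 1 of Csf1r and Ptprc, fewer than 2 of Cd3d, Cd3e, Cd3g and Trac, and at least 2 of Folr2, Lyve1 and Cd163 together. These thresholds are called the gate below, and Folr2, Lyve1 and Cd163 its 3 genes. Of 4403 cells that passed the quality filters, 162 met the gate, 36 of 1442 in the wild-type library and 126 of 2961 in the TSK library. The other 332 C1q-positive macrophages, which met every threshold except the last, served as the comparison (144 in the wild-type and 188 in the TSK library).

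Both libraries came from female C57BL/6 mice of 6 to 8 weeks that received 1000000 cells of the mouse ovarian cancer line SO under the skin. Wild-type (WT) mice carried no change in Fbn1, and tight skin (TSK) mice were heterozygous for a duplication inside Fbn1, the gene of the matrix protein fibrillin-1, which thickens the skin and is used as a model of systemic sclerosis. The tumors of each genotype were pooled into 1 suspension, freed of dead and red cells, and sequenced as 1 droplet library from the 3′ end of transcripts, with no sort for a cell type. There was thus 1 library per genotype, individual mice cannot be told apart, and genotype cannot be told apart from library. No test of genotype was possible, and each value is given with an exact 95% interval that covers counting error only. The Fbn1 duplication lies in the body of the gene, so 3′ tags of Fbn1 do not check the genotype.

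Tissue macrophages that carry the folate receptor FOLR2, the hyaluronan receptor LYVE1 and the hemoglobin scavenger receptor CD163 are found around vessels and in connective tissue, where they are long-lived and take up debris, heme and iron. They are usually set against macrophages that arise from blood monocytes, which enter tumors through the chemokine receptor CCR2 and carry inflammatory and hypoxia genes. Genes known from the resident type include Mrc1 (the mannose receptor), Ccl8 and Pf4 (chemokines), Cbr2 (a carbonyl reductase), Selenop (selenium transport), F13a1 (a coagulation factor subunit), Gas6 (a ligand of phagocytic receptors) and the transcription factor Maf.

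Ccl8 and Pf4 are the chemokines on which the results below turn: the first separated the gated cells from the other macrophages, and the second separated the libraries. Ccl8 lies on chromosome 11 (82115185 to 82116799, plus strand) and Pf4 on chromosome 5 (90772435 to 90773383, plus strand) of mouse build GRCm38. The 250 bases before each RefSeq start site (GRCm38.p6, plus strand), chr11:82114935-82115184 for Ccl8 and chr5:90772185-90772434 for Pf4, read as below, 5′ to 3′, with capitals where GAGGAAG, a motif of the macrophage factor PU.1, was matched on the opposite strand.
Ccl8: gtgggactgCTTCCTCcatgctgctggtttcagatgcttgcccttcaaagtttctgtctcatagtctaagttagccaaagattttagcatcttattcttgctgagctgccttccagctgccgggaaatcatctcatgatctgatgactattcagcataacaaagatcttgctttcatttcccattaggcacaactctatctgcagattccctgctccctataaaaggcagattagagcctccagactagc
Pf4: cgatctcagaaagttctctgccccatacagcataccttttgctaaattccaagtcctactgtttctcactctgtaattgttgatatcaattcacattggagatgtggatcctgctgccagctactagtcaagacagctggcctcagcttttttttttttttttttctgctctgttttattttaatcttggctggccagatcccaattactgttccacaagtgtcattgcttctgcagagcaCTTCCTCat
The match lay 241 to 235 bases before the start of Ccl8 and 9 to 3 bases before that of Pf4. On either strand, GAGGAAG was found in 10.6% of 32851 windows of the same length before all RefSeq starts. It was also found in the windows of Mrc1 and Cbr2, and not in those of Folr2 and Cd163. TGCTGAC, a half-site of the MAF factors, was in 3.81% of all windows and in none of those of the genes just named. These matches are letters in a window and say nothing of binding.

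Folr2 carried most cells through the gate. At least 1 Folr2 UMI was present in 34 of 36 WT cells (94.4%, exact binomial interval 81.3 to 99.3%) and in 122 of 126 TSK cells (96.8%, 92.1 to 99.1%). Lyve1 was detected in 7 of 36 WT cells (19.4%, 8.19 to 36.02%) and in 55 of 126 TSK cells (43.7%, 34.8 to 52.8%). Cd163 was detected in 7 of 36 WT cells (19.4%) and in 44 of 126 TSK cells (34.9%, 26.6 to 43.9%). The intervals of Lyve1 and of Cd163 overlapped between the libraries.

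All 3 genes were found together in 1 WT cell (2.78%, 0.0703 to 14.5%) and in 32 TSK cells (25.4%, 18.1 to 33.9%). Folr2 alone marked 23 WT cells (63.9%) and 60 TSK cells (47.6%). The cells of the gate therefore ranged from cells that held the full receptor set to cells that held Folr2 and neither of the other two. These values chose the members and are given as a description.

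**Figure D1:**
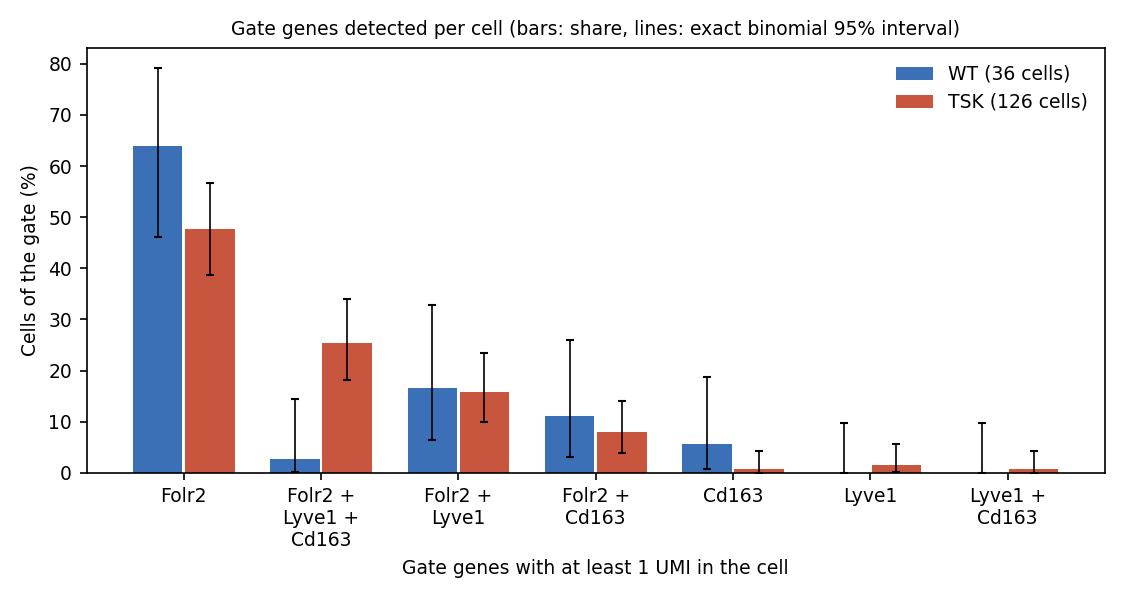
The bars give the percent of gated cells (vertical axis) in which each combination of Folr2, Lyve1 and Cd163 had at least 1 UMI, for 36 WT and 126 TSK cells, with exact binomial 95% intervals. Folr2 alone is the most frequent combination in both libraries (63.9% and 47.6%), and the triple combination is at 2.78% in WT and 25.4% in TSK cells.

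Depth differed between the groups compared. The gated cells held a median of 19431 UMIs in WT (4074 to 49447) and 9863 in TSK (1924 to 76573), against 12835 and 7288 in the other C1q macrophages. More than 10000 UMIs, the upper limit that the study set, were held by 31 of 36 WT and 59 of 126 TSK gated cells. Values given below for that limit therefore rest on few WT cells. A gate of a fixed number of UMIs admits deep cells more easily. After each cell was thinned to 2000 UMIs, with no WT and 2 TSK cells too shallow, Folr2 remained detected in 36.1% of WT and 55.6% of TSK cells, Lyve1 in 8.33% and 29.0%, and Cd163 in 8.33% and 22.6%. Free RNA was gauged in T cells, which do not express these receptors. They were cells with at least 2 UMIs of Cd3d, Cd3e, Cd3g and Trac together and no UMI of C1qa, C1qb or C1qc. There were 434 in WT at a median of 6884 UMIs and 260 in TSK at 3179.5. T cells that held free C1q RNA of macrophages were thus left out, so the T-cell levels here and below may understate free RNA. Unthinned, T cells with a UMI made up 0.230% and 0.385% for Folr2, 0.230% and 0.385% for Lyve1, and 0.461% for Cd163 in WT, while 0 of 260 TSK T cells held Cd163, which allows a share of up to 1.15%. Each gate gene thus lay above the T-cell level in the gated cells, by the construction of the gate. Barcodes found in both libraries (263) were left out before any count.

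The gated cells made up 20% of WT C1q macrophages (36 of 180, 14.4 to 26.6%) and 40.1% of TSK C1q macrophages (126 of 314, 34.7 to 45.8%). The log2 ratio of TSK over WT was 1.00 (0.46 to 1.58), and the intervals of the shares did not overlap. Over all cells that passed, the shares were 2.50% (1.75 to 3.44%) and 4.26% (3.56 to 5.05%), a log2 ratio of 0.77 (0.22 to 1.35). C1q macrophages as a whole were 12.5% of WT and 10.6% of TSK cells, with overlapping intervals. The TSK cells were the shallower ones, and after thinning to 2000 UMIs the share was 6.19% in WT and 20.7% in TSK. With 1 pool per genotype, these shares have no replicate check.

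Ccl8 and Mrc1 are marker genes of the label that the gate did not use. The members and lists were chosen with earlier results of these data known. The levels of both genes therefore describe the gated cells and do not test the label. Ccl8, a ligand of CCR8 in the mouse, stood at 4991 CPM (UMIs per 1000000 UMIs summed over the cells) in WT gated cells (exact Poisson interval 4828 to 5158) and 4144 in TSK gated cells (4042 to 4247). In the other C1q macrophages it stood at 508 (478 to 540) and 638 (601 to 677). The gated cells were higher in both libraries, by 3.30 (3.20 to 3.40) and 2.70 (2.61 to 2.79) on the log2 scale. With the whole gate applied to cells thinned to 2000 UMIs, which left 7 WT and 44 TSK gated cells, the ratios were 0.81 (0.34 to 1.25) and 1.99 (1.83 to 2.15), so the WT difference was then under 2-fold.

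After thinning, Ccl8 was detected in 91.7% of WT and 77.4% of TSK gated cells, 22.9% and 28.4% of the other C1q macrophages, and 3.26% and 3.52% of T cells. Unthinned, these shares were 91.7% and 85.7%, 38.9% and 39.9%, and 6.68% and 5.38%. Ccl8 was therefore both more frequent and more abundant in the gated cells, and above the T-cell level in both macrophage classes.

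Mrc1 stood at 1902 (1802 to 2006) and 1884 (1815 to 1954) CPM in WT and TSK gated cells, against 1198 and 768 in the others. The log2 ratio was 0.67 (0.57 to 0.76) in WT and 1.29 (1.20 to 1.39) in TSK, so Mrc1 was higher in the gated cells in both libraries but reached 2-fold in TSK alone, and it was frequent in both classes (thinned, 88.9% and 84.7% against 62.9% and 48.9%). T cells held it in 0.466% and 2.20% after thinning. The TSK ratio of Mrc1 was 0.84 with at least 4 gate UMIs and 0.91 without cells that held 2 UMIs of another cell type's markers. All cells compared here come from the pools that the gate was applied to, so differences between the classes are a description with no test.

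Cells just inside and just outside the gate are given as a description. The 8 WT and 23 TSK members with exactly 2 UMIs of the gate genes held Ccl8 at 5339 and 2199 CPM, and the 15 WT and 37 TSK macrophages just outside, with 1 UMI, at 1671 and 413. Selenop stood at 354 and 395 CPM inside and 279 and 167 outside, and Mrc1 at 1226 and 1610 inside and 1138 and 443 outside.

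Across 5723 genes with at least 50 UMIs in the C1q macrophages of each library, 63 (1.1%) were at least 2-fold higher in the gated cells in both libraries and 76 (1.33%) were at least 2-fold lower in both. Over the alternative gates and filters the counts ran from 9 to 154 and from 28 to 263. The minimum was met by both classes together, so a gene high in 1 class could reach it through that class. Cbr2, with 48 WT and 20 TSK UMIs in the others, did so, as did Clec10a in TSK, with 25. Counts of genes on lists, here and below, are thus a description. Of 18 counted genes on a list of tissue-resident macrophage genes outside the gate, 13 were higher in both libraries and none lower, with median log2 ratios of 1.502 in WT and 2.27 in TSK against -0.07 and 0.00 over all genes. Cbr2 was at 257 and 291 CPM in WT and TSK gated cells against 22.9 and 11.6 in the others, log2 ratios of 3.49 (3.02 to 3.98) and 4.65 (4.0 to 5.37). Selenop was at 985 and 1024 CPM against 223 and 177, ratios of 2.15 (1.98 to 2.32) and 2.53 (2.36 to 2.72). Both genes lay apart between the classes in each library, with intervals that did not meet. Without cells that held 2 UMIs of another type, which left 8 WT and 63 TSK gated cells (8 of the 28 WT cells left out by the endothelial list alone), the WT ratio of Selenop was 0.76 (0.18 to 1.31). Pf4 had ratios of 1.35 (0.99 to 1.71) and 1.37 (1.23 to 1.52), and its TSK ratio was 0.27 in thinned cells, 0.596 with a gate of Lyve1 and Cd163 alone and 0.73 with 4 gate UMIs per 10000.

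Fcgrt, the neonatal Fc receptor that recycles antibodies and albumin, was at 278 and 357 CPM in the gated cells and at 49.6 and 55.0 in the others. Gas6 was at 136 and 264 CPM against 48.2 and 16.8, and the growth factor gene Igf1 at 125 and 101 against 48.2 and 20.9. Maf, the only one of 20 counted macrophage transcription factors to pass 2-fold in both libraries, was at 407 and 447 CPM against 144 and 150, log2 ratios of 1.504 (1.27 to 1.74) and 1.57 (1.36 to 1.79). In the 8 WT gated cells without 2 UMIs of another type the ratio of Maf was 0.05 (-0.80 to 0.82), so the WT difference was not detectable there.

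The C-type lectins Clec10a and Cd209f were among the 15 highest genes. Clec10a was at 229 and 141 CPM in the gated cells against 45.8 and 14.5 in the others. In the gate, 3 cells of WT held all 50 UMIs of Cd209f and 29 cells of TSK held all 192, and the others of each library held 1 UMI, a log2 ratio of 7.20 (4.66 to 12.53) in WT and 7.77 (5.27 to 13.08) in TSK. Cd209f was thus carried by a minority of the gated cells, and it reached the minimum of 50 UMIs through them.

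Among the 15 highest were also Cp, the copper protein ceruloplasmin that oxidizes iron (2.84 in WT and 2.80 in TSK), Stard8 (2.56 and 2.96), Tbc1d4 (2.20 and 2.23), Pdgfc, a platelet-derived growth factor (1.95 and 2.60), Fcrls, an Fc receptor-like gene of macrophages (1.78 and 1.89), and Timp2, an inhibitor of metalloproteinases (1.78 and 1.75). The complement gene C4b (1.41 and 2.68) passed 2-fold in both, and Itgax, the integrin CD11c, was lower in both (-1.12 and -1.50). The WT ratio of Fcrls was 0.75 with a gate of Lyve1 and Cd163 alone.

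Ighm, the immunoglobulin heavy chain of B cells, was also among the 15 highest, at 73.0 and 54.6 CPM in the gated cells against 20.02 and 11.6 in the others. At least 2 UMIs of the B-cell list were held by 41.7% of WT and 18.3% of TSK gated cells, against 6.94% and 3.72% of the others. Ighm was the most abundant gene of that list, while Pax5, the factor that defines the B-cell lineage, was at 0 in the gated cells of both libraries. The summed list stood at 82.8 and 60.5 CPM, and its part in the result was not tested.

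**Figure D2:**
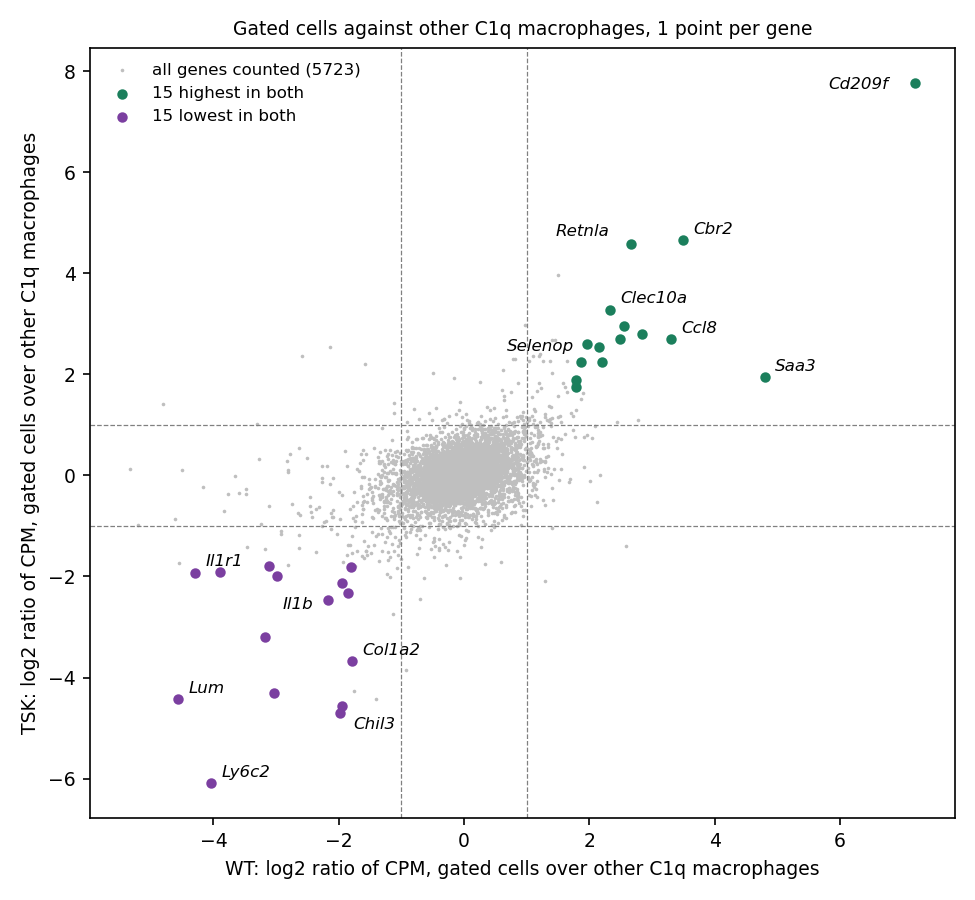
Each point is 1 of 5723 genes, with the log2 ratio of CPM of gated cells over other C1q macrophages in WT on the horizontal axis and in TSK on the vertical axis, and dashed lines at 2-fold. The 15 highest genes by the weaker library (green) include Cbr2, Ccl8, Retnla and Cd209f, and the 15 lowest (purple) include Ly6c2, Chil3, Il1b and Lum.

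**Figure D3:**
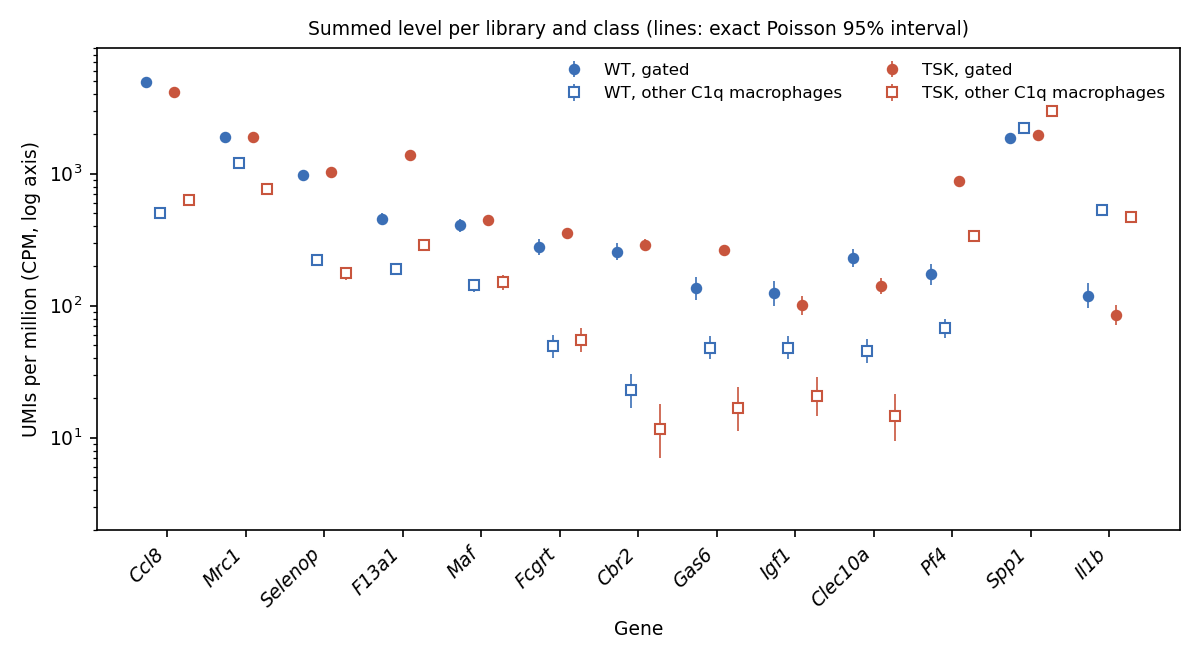
The points give CPM (log axis) in the gated cells (filled) and the other C1q macrophages (open) of each library, with exact Poisson 95% intervals, for 13 genes. From Ccl8 to Pf4 the filled points lie above the open ones of the same color, and for Spp1 and Il1b they lie below.

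Retnla and Saa3 were also among the 15 highest, and their UMIs came from few cells. Retnla, a secreted product of alternatively activated macrophages, was at 977 and 982 CPM in WT and TSK gated cells and at 154 and 41.1 in the others. All 696 WT UMIs came from 4 cells, and 50% of them from 1 cell, whereas the 1493 TSK UMIs came from 37 of 126 cells. Saa3, a serum amyloid gene of the acute phase, had log2 ratios of 4.80 and 1.94, and 1 cell held 45% of its WT UMIs and 40.3% of its TSK UMIs. With a gate of Lyve1 and Cd163 alone the Saa3 ratios were -1.24 and -0.15. Retnla was detected in 8.33% of WT and 20.97% of TSK gated cells after thinning (11.1% and 29.4% before), against 4.29% and 2.84% of the other C1q macrophages and 0.466% and 0.441% of T cells (6.94% and 3.72%, and 1.84% and 1.15%, before). The thinned WT intervals of the gated cells (1.75% to 22.5%) and the other C1q macrophages (1.59% to 9.09%) overlapped, so a WT difference in detection was not detectable at this depth, and those of TSK (14.2% to 29.2% and 0.929% to 6.505%) did not meet.

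Of 14 counted genes on a list of newly recruited monocytes, 4 were at least 2-fold lower in both libraries and none higher, with medians of -1.31 and -0.67. Ly6c2, a surface marker of inflammatory monocytes, had 5 UMIs in WT and 1 in TSK gated cells against 243 and 77 in the others, log2 ratios of -4.04 (-5.68 to -2.80) and -6.08 (-11.41 to -3.56). Ccr2 was at 135 and 68.4 CPM against 337 and 141, ratios of -1.32 (-1.64 to -1.01) and -1.05 (-1.39 to -0.71). The WT ratio of Ccr2 was -0.04 without cells that held 2 UMIs of another type, and the TSK ratio was -0.51 with a gate of 4 UMIs per 10000, so neither call held under every setting. The other 2 were F10 (-1.35 and -1.70) and Thbs1 (-1.48 and -1.54), which encode coagulation factor X and thrombospondin-1, and their WT ratios were -0.89 for F10 with at least 4 gate UMIs and 0.20 for Thbs1 in thinned cells.

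Il1b, the gene of the inflammatory cytokine interleukin-1β, was at 119 and 85.5 CPM in the gated cells against 535 and 474 in the others, log2 ratios of -2.17 (-2.50 to -1.85) and -2.47 (-2.75 to -2.20). It was the only one of 14 counted inflammatory genes to be at least 2-fold lower in both libraries. Inhba, which encodes an activin subunit, was lower by ratios of -1.86 and -2.34, and the chemokine gene Ccl24 by -1.85 and -1.37. With a gate of Lyve1 and Cd163 alone the ratios of Ccl24 were -0.32 and -0.57 and the WT ratio of Inhba was -0.97. Il1r1 (-4.30 and -1.93), Rapgef4 (-3.90 and -1.91), Flt1, a receptor of vascular growth factors (-1.81 and -1.82), Ly6i (-3.04 and -4.30) and Mcemp1 (-3.17 and -3.20) completed the immune and signaling genes among the 15 lowest. Il1r1, with 1 UMI, and Mcemp1 and Rapgef4, with 2 each, were near 0 in the WT gated cells.

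Chil3, a chitinase-like gene of monocytes and alternatively activated macrophages, was at 289 and 13.8 CPM against 1137 and 358, and 1 cell held 84.0% of its UMIs in WT gated cells. With a gate of Lyve1 and Cd163 alone its WT ratio was 0.47. Collagen and matrix genes of fibroblasts made up much of the remainder. Of 6 counted fibroblast markers, all 6 were at least 2-fold lower in both libraries (Col1a1, Col1a2, Col3a1, Dcn, Lum and Postn). Cells with at least 2 UMIs of the fibroblast list made up 16.7% of gated and 18.75% of other cells in WT, and 9.52% and 8.51% in TSK. The shares of cells with these UMIs were thus similar in both classes. In the others, the UMIs of Lum came from 3 WT and 5 TSK cells. With equal weight per cell the WT ratios of Col1a2 and Postn were -0.04 and -0.495, and the TSK ratio of Col3a1 was -0.49 with C1q at 10 UMIs and -0.94 with a gate of Lyve1 and Cd163 alone. The list summed to 366 and 101 CPM in WT and TSK gated cells against 1663 and 714 in the others, and its part in the result was not tested.

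Several programs did not separate the classes by 2-fold. None of 10 counted MHC class II genes, 17 lipid-associated macrophage genes, 16 stress and dissociation genes or 9 cell cycle genes passed 2-fold in both libraries in either direction. Cd74, the invariant chain of MHC class II, was at 6864 CPM in WT and 3219 in TSK gated cells, against 7252 and 3891 in the others. Apoe, an apolipoprotein gene and the most abundant lipid gene, was at 6553 and 6278 CPM against 1958 and 3377, a log2 ratio of 1.74 in WT and 0.89 in TSK. Of 18 interferon-stimulated genes, Ifit1 (-1.55 and -1.57) and Ifi205 (-1.75 and -1.79) were lower, though the WT ratio of Ifit1 was 0.91 with a gate of Lyve1 and Cd163 alone, and of 17 hypoxia and glycolysis genes, the glucose transporter gene Slc2a1 (-1.17 and -1.02) was lower. The WT ratio of Slc2a1 was -0.39 without cells that held 2 UMIs of another type.

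Spp1, the gene of osteopontin, was at 1864 and 1980 CPM in WT and TSK gated cells, against 2205 and 2969 in the others. Its log2 ratios, -0.24 (-0.33 to -0.15) and -0.58 (-0.65 to -0.52), did not reach 2-fold. The gated cells as a whole thus held Spp1 near the level of the other C1q macrophages.

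Inside the gate, the cells were not alike. Cells with Lyve1 or Cd163 (13 WT, 66 TSK) were set against cells with Folr2 only (23 WT, 60 TSK), whose median depths were 18817 and 20410 UMIs in WT and 8989 and 11492.5 in TSK. Of 2168 genes counted, 47 (2.17%) were at least 2-fold higher in the Lyve1 or Cd163 cells in both libraries and 55 (2.54%) were at least 2-fold lower. Spp1 was at 206 CPM in the Lyve1 or Cd163 cells and 2619 in the Folr2-only cells of WT, and at 460 and 3188 in those of TSK, log2 ratios of -3.67 and -2.79. In WT 1 Folr2-only cell held 28.2% of the Spp1 UMIs of the gated cells, and in TSK 1 held 13.6%. Without these cells the ratios were -3.24 and -2.60. With them counted, the Folr2-only cells held Spp1 at or above the level of the other C1q macrophages (2205 and 2969). The label resident-like is therefore not borne out by Spp1 in that part of the gate.

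A similar split was seen in the resident list. Of 18 counted genes of that list, 9 were higher in the Lyve1 or Cd163 cells in both libraries and none lower, with medians of 1.14 and 1.86. The 9 were Cbr2 (2.63 and 3.06), Clec10a (2.35 and 3.38), Fcgrt (2.30 and 2.43), Gas6 (2.16 and 2.60), Igf1 (1.97 and 2.08), Selenop (1.88 and 2.16), F13a1 (1.57 and 1.74), Maf (1.19 and 1.75) and Cd209f. Cd209f had 50 UMIs in the WT Lyve1 or Cd163 cells and none in the WT Folr2-only cells, and 172 and 20 UMIs in TSK. Its WT UMIs, from 3 cells, all lay on the side where it was higher, so its place among the 9 is a description. Clec10a, with 23 UMIs in the TSK Folr2-only cells, also reached the minimum of 50 UMIs through the side where it was higher. The count of 9 is thus a description. The list of newly recruited monocyte genes did not mirror this: of 10 counted genes, Plac8 was higher in the Lyve1 or Cd163 cells (2.17 and 3.11) and none was lower, with medians of 0.64 and 0.00. Timd4, a phosphatidylserine receptor of long-resident macrophages, had 2 and 0 UMIs in WT and 29 and 1 in TSK.

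Ccl8 and Pf4 split less. Ccl8 was at 7151 CPM in the Lyve1 or Cd163 cells and 4007 in the Folr2-only cells of WT, and at 5869 and 2772 in those of TSK, ratios of 0.84 and 1.08. In WT 1 cell with Lyve1 or Cd163 held 20.8% of the Ccl8 UMIs, and without it the ratio was 0.10 (-0.02 to 0.22). Even the Folr2-only cells held Ccl8 above the other C1q macrophages (508 and 638). Pf4 had ratios of 0.83 in WT and 0.21 in TSK, and Mrc1 of 0.65 and 1.04.

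Inflammatory and glycolytic genes were also counted inside the gate. Of 10 counted inflammatory genes, 5 were lower in the Lyve1 or Cd163 cells in both libraries, namely Nos2, the inducible nitric oxide synthase (-3.41 and -2.55), Ptgs2, which makes prostaglandins (-5.39 and -1.38), Il1b (-2.34 and -1.60), Il1rn (-1.96 and -1.40) and Saa3 (-3.97 and -1.35). In TSK 1 Folr2-only cell held 40.3% of the Saa3 UMIs, and without it the ratio was -0.29 (-0.47 to -0.11). With the cell that held most of a gene's UMIs left out in each library, a setting chosen after seeing the data, the other 4 genes stayed past 2-fold, with Il1b at -1.46 and -1.11. Of 14 hypoxia and glycolysis genes, 4 were lower (Gapdh, Aldoa, Eno1 and Mif), for example Gapdh at 444 against 907 CPM in WT and 462 against 1374 in TSK. Without the cell with most UMIs, the WT ratios of Gapdh, Aldoa and Mif were -0.68, -0.98 and -0.72, the TSK ratio of Mif was -0.83, and Eno1 stayed past 2-fold in both libraries. The interferon-responsive chemokine genes Cxcl9 (-3.47 and -2.02) and Cxcl10 (-4.52 and -1.36), with Ccl5 and Cxcl16, were lower, whereas Ccl6 (1.49 and 1.48) and Ccl24 (1.97 and 2.92) were higher. Without the cell with most UMIs the WT ratio of Ccl24 was -0.11 and the TSK ratio of Cxcl10 was -0.91.

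Of 15 counted dissociation and stress genes, Egr1 (1.95 and 1.72) and Zfp36 (1.02 and 1.62), immediate early genes, were higher in the Lyve1 or Cd163 cells in both libraries, and the WT ratio of Zfp36 was 0.96 without the cell with most UMIs. Their part in the result was not tested. With 13 WT cells on one side, the WT values rest on few cells.

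**Figure D4:**
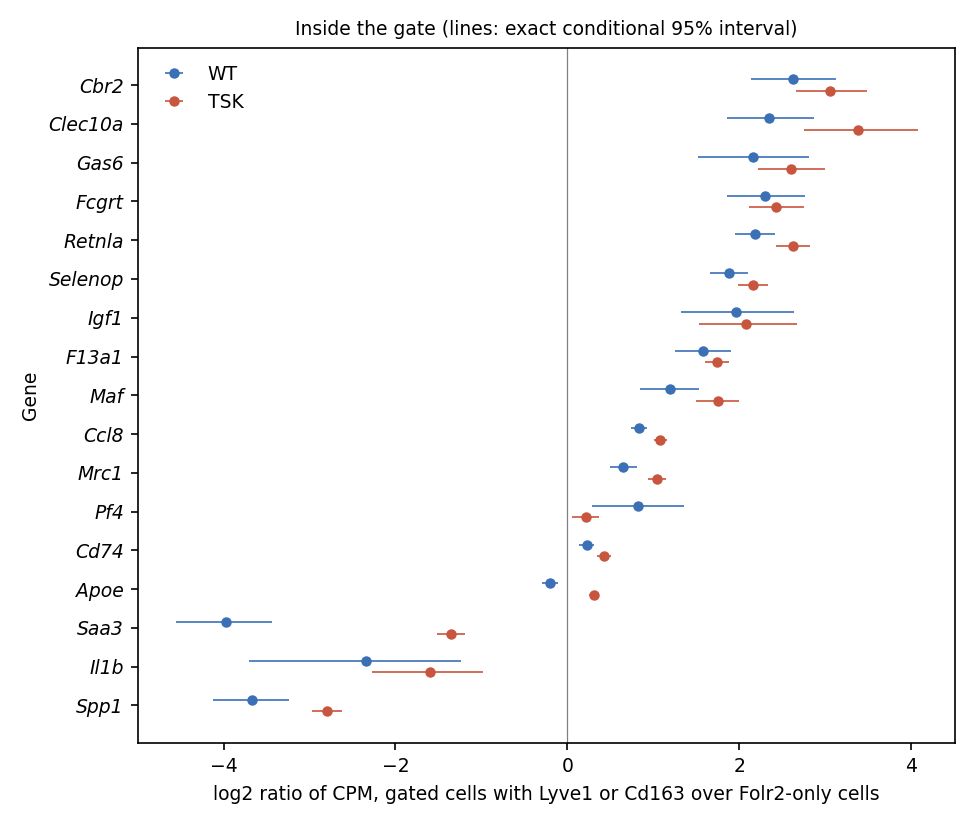
The points give the log2 ratio of CPM, gated cells with Lyve1 or Cd163 over gated cells with Folr2 only, in WT (13 against 23 cells) and TSK (66 against 60), with exact conditional 95% intervals. The genes from Cbr2 to Maf, all of the resident list except Retnla, lie right of 1 in both libraries. In WT 1 cell with Lyve1 or Cd163 held 50% of the Retnla UMIs, and without it the ratio was 0.32 (-0.02 to 0.64). Spp1, Il1b and Saa3 lie left of -1 in both libraries, with 1 Folr2-only cell holding 40.3% of the TSK Saa3 UMIs.

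Between genotypes, 651 of 5730 genes with at least 50 UMIs in the gated cells (11.4%) were at least 2-fold higher in TSK and 109 (1.9%) at least 2-fold lower, and the counting interval left out 0 for 649 and 109 of them. This minimum was met by the gated cells of both libraries together, which held 712461 UMIs in WT and 1520846 in TSK. Genes high in TSK thus passed it more easily, so the split of these counts and the shares over all genes are in part set by the minimum and are a description. The median gene was shifted by 0.24 on the log2 scale toward TSK. With the ratios divided by that median, 365 genes were higher and 204 lower. Without 16 gated cells (5 WT, 11 TSK) that held at least 10 UMIs of another cell type's markers, a comparison chosen after seeing the data, 230 genes were higher (4.93%) and 65 lower (1.39%) of 4669. Of the 5 WT cells, 4 were picked out by the endothelial list alone, with 78 of their 80 UMIs of that list from Pecam1, which some leukocytes also carry, and none of the 11 TSK cells was. With the endothelial list not used, a setting also chosen after seeing the data, 1 WT cell and 11 TSK cells were left out, and 225 genes were higher (4.67%) and 79 lower (1.64%) of 4819. Among the other C1q macrophages 580 of 7129 genes were higher in TSK and 200 lower, so a count of this size was not particular to the gated cells.

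Pf4, platelet factor 4, was at 173 CPM in WT gated cells (143 to 206) and 877 in TSK gated cells (831 to 926), a log2 ratio of 2.35 (2.08 to 2.62). In the other C1q macrophages it was at 67.7 and 338 CPM, a ratio of 2.32 (2.05 to 2.60). Over the alternatives run, the ratio of Pf4 in the gated cells went from 1.21 to 3.50. Thinned, Pf4 was detected in 13.9% of WT and 63.7% of TSK gated cells, and in 0 of 429 and 0.881% of T cells (72.2% and 86.5%, and 0.230% and 3.08%, unthinned). Pf4 was thus higher in TSK in both macrophage classes by a similar ratio, and the platelet marker list summed to 5.61 and 6.58 CPM in the gated cells, with Itga2b and Ppbp its most abundant genes and Gp9, Gp1bb and Gp1ba at 0 in both libraries.

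F13a1 was at 453 CPM in WT and 1392 in TSK gated cells, a ratio of 1.62 (1.45 to 1.79), and the ratio in the other C1q macrophages was 0.61 (0.41 to 0.80). Within the Lyve1 or Cd163 cells the ratio was 1.45, and within the Folr2-only cells 1.29. F13a1 was therefore higher in TSK in both kinds of gated cells, and its ratio was 0.76 when cells were held to at most 10000 UMIs. Of 22 counted genes of the resident list, 5 were higher in TSK and none lower, beside 11.4% and 1.9% of all genes, with a median of 0.27 against 0.24 over all genes. In the other C1q macrophages 3 of 17 counted genes of the list were higher and 4 lower, with a median of -0.33 against 0.17. Besides F13a1, the genes higher in TSK with all gated cells counted were Pf4, Fcna, a ficolin of innate immunity (1.22), Cd209d, a C-type lectin (1.79), and Ltc4s, the leukotriene C4 synthase (1.97). With a gate of 4 UMIs per 10000 the ratios of Fcna and Cd209d were 0.25 and 0.62.

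Of the gate genes, Lyve1 differed most, at 29.5 CPM in WT and 274 in TSK, a ratio of 3.22 (2.59 to 3.92). Cd163 was at 77.2 and 172 CPM (1.15, 0.73 to 1.60) and Folr2 at 278 and 400 (0.53, 0.29 to 0.77). These 3 genes chose the cells, and their ratios are given as a description. The label's marker genes outside the gate were Mrc1, at -0.01 (-0.11 to 0.08), and Ccl8, at -0.27 (-0.33 to -0.21).

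Retnla had a ratio of 0.01 (-0.12 to 0.14) in the gated cells and of -1.91 (-2.30 to -1.53) in the other C1q macrophages. Without the WT cell that held the most Retnla the ratio in the gated cells was 0.98 (0.81 to 1.15). Without the 16 cells with markers of another type it was 1.07 (0.90 to 1.24), and with the endothelial list not used it was 0.30 (0.16 to 0.43). The WT level of Retnla thus rested on single cells.

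Of 10 counted genes on the list of class II presentation and costimulation, 6 were at least 2-fold lower, beside 1.9% of all genes, with a list median of -1.03 against 0.24 over all genes. Cd74 was at 6864 CPM in WT and 3219 in TSK (-1.09, -1.15 to -1.03), and it was -0.90 in the other C1q macrophages. H2-Ab1, a class II chain, had a ratio of -1.15, and Ciita, the class II transactivator, of -1.82 (-2.70 to -0.97). Without the 16 cells, none of 9 genes of the list that kept 50 UMIs was 2-fold lower, with a median of -0.74, and Ciita, then under 50 UMIs, was at -1.66. With the endothelial list not used, Ciita alone of 10 genes was 2-fold lower, with a median of -0.71. Cd80 (1.96) and Cd86 (1.02), costimulatory ligands on the same list, were higher in TSK. The ratio of Cd86 was 0.498 when cells were held to at most 10000 UMIs and 0.78 after median scaling.

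Of 11 heme and iron genes, 2 were at least 2-fold higher in TSK and none lower, beside 11.4% of all genes. Hmox1, the heme oxygenase, was at 366 and 761 CPM (1.05, 0.86 to 1.25) and Slc48a1, a heme transporter, had a ratio of 1.04. The ratio of Hmox1 was 0.40 with a gate of 4 UMIs per 10000 and that of Slc48a1 was 0.80 after median scaling. Of 18 lipid-associated genes, 4 were higher in TSK and none lower, with a list median of 0.24, the same as over all genes. The 4 were Gpnmb (3.95, 2.36 to 6.25), Cd9 (2.26), Lpl (1.84) and Ctsd (1.13, or 0.89 after median scaling). Gpnmb rested on 3 WT UMIs and 99 TSK UMIs in 17 cells, and its ratio in the other C1q macrophages was 4.01. The fatty acid receptor gene Cd36 was at 9.83 and 108 CPM, a ratio of 3.46 (2.38 to 4.79), with 7 UMIs in 4 WT cells, and it was 0.66 when cells were held to at most 10000 UMIs.

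Among 15 counted chemokines, Cxcl2, which attracts neutrophils, was at 361 CPM in WT and 1140 in TSK (1.66, 1.47 to 1.85). It and Pf4 were higher in TSK, and Ccl24 (-1.84), Ccl5 (-1.15) and Cxcl9 (-1.21) were lower. Over all genes, 11.4% were higher and 1.9% lower. Without the 16 cells, Ccl24 was the only chemokine still 2-fold lower, with Ccl5 at -0.98 and Cxcl9 at -0.70, and with a gate of Folr2 and Lyve1 alone the ratio of Ccl24 was -0.92. With the gate set at 4 UMIs per 10000 the ratio of Ccl5 was 0.70 and that of Cxcl9 was -0.10. In the other C1q macrophages Cxcl2 was at 837 and 905 CPM. Of 11 alternative activation genes, Cd83 was higher (1.43, or 0.86 at the limit of 10000 UMIs per cell) and Chil3, Ccl24 and Pdcd1lg2 (-2.09) were lower in TSK. Chil3 had a ratio of -4.39, with 84.0% of its WT UMIs in 1 cell. Of 18 hypoxia and glycolysis genes, Egln3 (2.35) and Adm (3.66) were higher, a share near the 11.4% over all genes, and of 18 cell cycle genes 7 were higher and none lower. In the other C1q macrophages 4 of 19 hypoxia genes and 12 of 17 cell cycle genes were higher in TSK and none lower, beside 8.14% of all genes there. Without the 16 cells, none of 16 hypoxia genes was higher in the gated cells, and of 11 cell cycle genes Mcm6 was higher and Ube2c lower, beside 4.93% and 1.39% of all genes, and Egln3 (1.72) and Adm (2.45) then had under 50 UMIs. With the endothelial list not used, Bnip3 of 16 hypoxia genes and Mcm5 and Mcm6 of 11 cell cycle genes were higher and none lower.

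None of 16 counted CSF and lineage receptors passed 2-fold between genotypes, and Csf1r, the receptor on which macrophages depend, had a ratio of 0.22 (0.00 to 0.45). For this and the lists that follow, the shares over all genes were 11.4% higher and 1.9% lower in TSK. Of 19 counted macrophage transcription factors, 2 were higher in TSK and none lower, Hes1, a target of Notch (2.01), and Atf3, a stress-induced factor (1.12). Atf3 was at 0.87 after median scaling and, on 9 WT UMIs, at the limit of 10000 UMIs per cell. Clec4e, a receptor for cell damage (2.06), was the only 1 of 12 monocyte genes to be higher. Tnfaip3, a brake on NF-kB (1.32), was the only 1 of 14 inflammatory genes. None of these shares of higher genes lay above 11.4%. Lower were Gbp2, an interferon-induced GTPase (-1.57, 1 of 14 interferon-stimulated genes), and the complement genes C3 (-1.08) and Itgax (-1.19, 2 of 10). The heat shock gene Hspa1b (-1.09) was lower as 1 of 16 dissociation and stress genes. Without cells that held 2 UMIs of another type the ratios of Gbp2 and C3 were -0.37 and -0.017, that of Itgax was -0.89 with equal weight per cell, and that of Hspa1b was -0.80 with a gate of Lyve1 and Cd163 alone.

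Of 24 genes of growth factors, matrix and proteases, Sparc was higher (1.72), and Timp1, an inhibitor of metalloproteinases (-1.51), and the collagenase gene Mmp13 (-1.63) were lower. The shares over all genes were 11.4% higher and 1.9% lower. Of the WT UMIs, 1 cell held all 45 of Mmp13 and 1 cell held 91.4% of those of Sparc, whose ratio was -0.16 with equal weight per cell. The values of Sparc and Mmp13 thus turned on single cells, and Timp1 was spread over 19 WT and 50 TSK cells.

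Several genes with the largest genotype ratios lay in cells that also held markers of other cell types. The 10 highest were Lgals7, Cdkn2a, Kcnq5, Krt18, Grik2, Nid1, Mfge8, Cxxc5, Psat1 and Col4a2, each with 1 or 2 UMIs in WT gated cells. Lgals7, a galectin of epithelial cells, had 1 WT UMI and 251 TSK UMIs, a ratio of 6.88 (4.39 to 12.19), and 94.8% of the TSK UMIs lay in the 11 TSK cells with at least 10 UMIs of another type. For Krt18, a keratin with a ratio of 5.41, that share was 98.4%. Lgals7, Krt18 and Cdkn2a are on the cancer cell marker list whose UMIs helped to pick out those cells, so both shares follow in part from the choice of the cells and are given as a description. The summed cancer cell list stood at 5.61 CPM in WT and 389 in TSK gated cells, with Lgals7 its most abundant gene in TSK and Krt19 at 0 in both. At least 2 of its UMIs were held by 0 of 36 WT and 12 of 126 TSK gated cells (9.52%), and by 4 of 144 and 24 of 188 of the other C1q macrophages.

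The 10 lowest were Pcsk5, Chil3, Col1a1, Col1a2, Dand5, Gm16124, Gem, Gm41496, Pecam1 and Gm21859. In WT gated cells 1 cell held all 50 UMIs of Pcsk5, 94.2% of those of Col1a1, 93.1% of those of Gm16124 and 98.1% of those of Gem. Pecam1, an adhesion molecule of endothelial cells and of some leukocytes, was spread over 27 of 36 WT and 23 of 126 TSK gated cells, at 254 and 49.97 CPM (-2.35, -2.75 to -1.95). At least 2 UMIs of the endothelial list, which summed to 258 and 57.2 CPM and of which Pecam1 was the most abundant gene, were held by 55.6% of WT and 14.3% of TSK gated cells. Tie1, Egfl7 and Esam of that list were at 0 in the WT gated cells and Esam in the TSK gated cells.

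**Figure D5:**
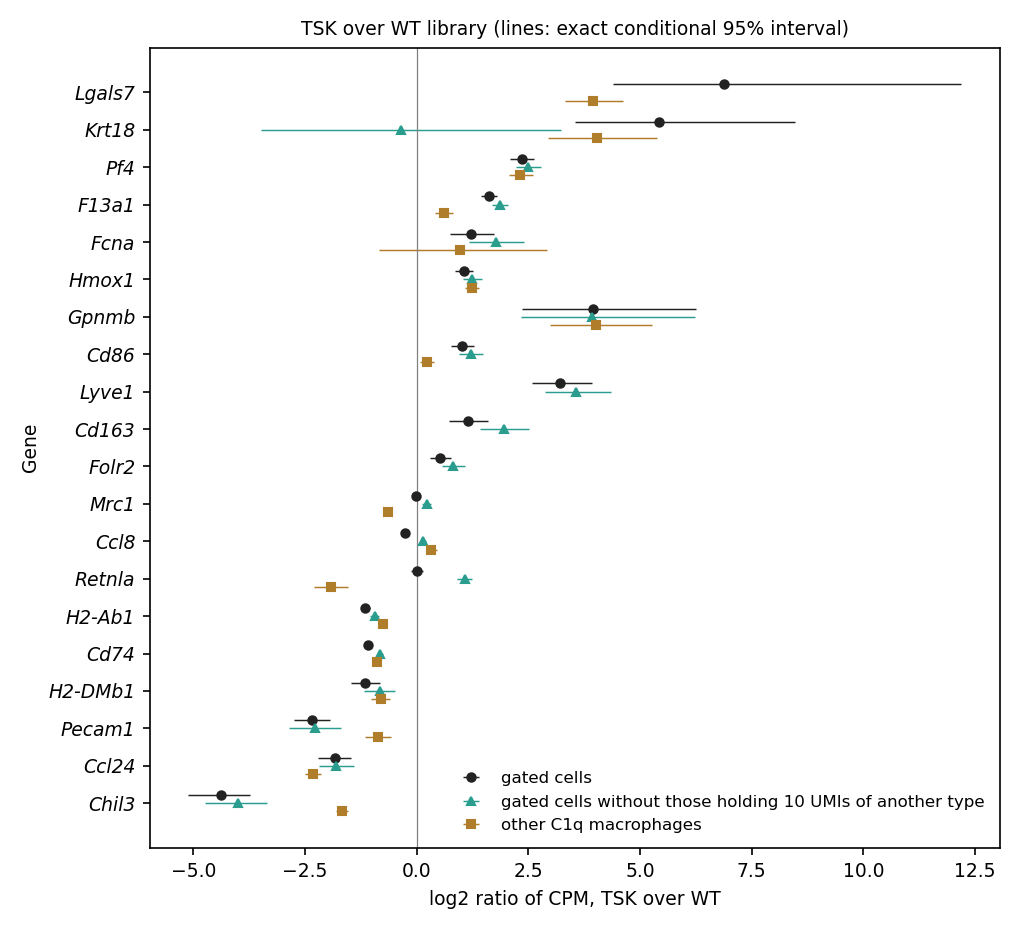
The points give the log2 ratio of CPM, TSK over WT, in the gated cells, in the gated cells without the 16 that held at least 10 UMIs of another type (none drawn for Lgals7, which had no WT UMI there), and in the other C1q macrophages (gate genes not drawn), with exact conditional 95% intervals. Pf4, F13a1 and Hmox1 lie right of 0 in all 3 sets, Krt18, one of the markers that picked out those cells, has 2 WT and 3 TSK UMIs without them, and Cd74 and Ccl24 lie left of 0 in all 3.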

How the data were processed

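Single-cell suspensions of the pooled tumors were run as 2 droplet libraries, 1 per genotype. The authors deposited raw counts, whole UMIs for 32285 genes per barcode, aligned to mm10 with Cell Ranger (7.1.0 per the file headers, 7.1.1 per the submitters' processing notes). The libraries held 21225411 UMIs in 2332 barcodes (WT) and 48296765 in 4436 (TSK).

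Barcodes present in both libraries (263) were left out, and cells with at least 200 genes, at least 500 UMIs and at most 10% mitochondrial UMIs were kept, with no upper limit. Doublets were left in. UMIs were summed per library and class and divided by the summed UMIs (CPM). For the 38 symbols with several identifiers, the one with the most UMIs was used. Intervals are exact at 95% (Poisson for levels, binomial for shares, conditional binomial for ratios), and a count of 0 was given a limit of 3 counts. Ratios were computed for genes with at least 50 UMIs, and genes past 2-fold (TSK over WT) or past 2-fold in both libraries (between classes) were counted. Named genes were the gate and marker genes, Pf4 and Retnla, the 15 highest and 15 lowest against the other C1q macrophages, the 10 highest and 10 lowest between genotypes, and on each list the most abundant gene and those past 2-fold (between genotypes, with an interval that left out 0). The members and lists were chosen with earlier results of these data known, and a few listed genes are not reported here.

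On simulated counts with 200 genes changed 4-fold, 100% of raised and 95.6% of lowered genes still counted were found for gated cells over other C1q macrophages (5685 genes), and 100% and 100% for TSK over WT (5197 genes), with 0.238% and 0.159% of unchanged genes called higher and lower in the latter. The counts were drawn per class with Poisson error alone and no variation between cells. These shares thus do not cover genes whose UMIs lay in few cells. Alternatives varied the depth limit, mitochondrial limit, shared barcodes, gate, C1q threshold, depth, other-type cells, gene minimum, weight of cells and scaling. Positions came from GENCODE M21 (422 of 422 identifiers found) and promoter windows from RefSeq (GRCm38.p6). Computation used matplotlib 3.10.9, pandas 2.3.3, scipy 1.17.1 and numpy 2.4.6 under Python 3.11.15.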

Additional observations from a re-analysis of the deposited data

Results flagged for a closer look

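A few genes moved in opposite directions in the 2 libraries or in the 2 macrophage classes, each by at least 2-fold. In every case the difference itself was not tested, since there was 1 library per genotype. Gem, a small GTP-binding protein, had a log2 ratio of gated cells over other C1q macrophages of 2.59 in WT and -1.40 in TSK. Its ratio of TSK over WT was -2.82 in the gated cells and 1.17 in the others, and 1 WT gated cell held 98.1% of its WT UMIs. Gm16124 had ratios of gated over other cells of 1.29 in WT and -2.10 in TSK, with 93.1% of its WT UMIs in 1 gated cell.

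Grik2, a glutamate receptor subunit, had ratios of gated over other cells of -4.80 in WT and 1.41 in TSK, and ratios of TSK over WT of 5.17 in the gated cells and -1.03 in the others. The gated cells held 1 Grik2 UMI in WT, and 96.1% of the 77 UMIs in TSK lay in the 11 cells with at least 10 UMIs of another cell type. Lpl, the lipoprotein lipase of lipid-handling macrophages, had ratios of gated over other cells of -1.12 in WT and 1.23 in TSK. It was detected in 9 of 36 WT gated cells, where 1 cell held 56.4% of the UMIs, and in 44 of 126 TSK gated cells, where 1 cell held 28.8%.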

How the results depend on the processing

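The share of gated cells among C1q macrophages was higher in TSK under every alternative run, at log2 ratios of 0.95 to 1.99. The depth limit of 10000 UMIs per cell was exceeded by 31 of 36 WT and 59 of 126 TSK gated cells, so few WT cells were left under it. With at most 10000 UMIs per cell, as the study set, the shares were 8.77% in WT and 34.0% in TSK (log2 1.96); with 4 gate UMIs 12.2% and 28.7%; with 4 per 10000 UMIs 6.67% and 26.4% (1.99); thinned to 2000 UMIs 6.19% and 20.7% (1.74); without Folr2 5.56% and 18.8% (1.76); and without cells holding 2 UMIs of another type 11.9% in WT. Genes higher and lower in the gated cells in both libraries numbered 24 and 50 at the depth limit, 154 and 263 with the gate per 10000 UMIs, 19 and 29 thinned, 120 and 194 without Folr2, 9 and 28 without cells of another type, 107 and 137 with a gene minimum of 20 UMIs, and 40 were lower at 100 UMIs. Genes higher and lower in TSK numbered 269 and 57 per 10000 UMIs, 57 and 4 thinned, 1289 and 234 at 20 UMIs, 301 and 51 at 100 UMIs, 365 and 204 after median scaling, 230 and 65 without cells holding 10 UMIs of another type, and 225 higher with the endothelial list not used; 340, 336 and 298 were higher at the depth limit, without Folr2 and without cells holding 2 UMIs of another type. Fewer UMIs or cells were counted in most of these settings, and the cause of each change was not tested. Ratios of gated over other cells changed sign for Ifit1 in TSK (0.11) and Mmp12 in WT (4.28) at the depth limit; for Chil3 (0.38), Ifit1 (0.83) and Saa3 (-1.18) in WT per 10000 UMIs; for Mmp12 (1.99) and Thbs1 (0.20) in WT and Saa3 (-0.34) in TSK when thinned; and for Chil3 (0.47), Ifit1 (0.91) and Saa3 (-1.24) in WT and Saa3 (-0.15) in TSK without Folr2. Ratios of TSK over WT changed sign for Ccl5 per 10000 UMIs (0.70) and for Sparc (-0.16) and Tyms (-0.056) with equal weight per cell. Of the other gene values, 1496 stayed within their counting interval and 520 moved past it. Of 92 ratios of gated over other cells and 68 of TSK over WT that were at least 2-fold, 27 and 30 fell below 2-fold or changed sign under at least 1 alternative. No paired analysis was possible because each genotype had 1 library.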
